A study of Homo sapiens with 2 samples.

Results

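FOS, FOSB, EGR1, JUNB, CCN1, CCN2 and ANKRD1 are 7 early genes that respond to serum or to the coactivator YAP. They were examined in the peak list of a study that precipitated chromatin of A549 lung adenocarcinoma cells with anti-Myocardin (MYOCD) or IgG. Each gene was taken with 10 kb on both sides, by its position in the human assembly GRCh37, and the windows held 16 of the 105637 peak summits deposited. The rule that names the members uses no peak value, but it was written with earlier results of these data known. The cells stably overexpressed MYOCD from the lentiviral vector pWPI and were grown in DMEM with 10% FBS. Chromatin of this line was precipitated with anti-Myocardin, against IgG from the same harvest, with 1 library for each antibody. Both libraries therefore carried the overexpressed gene, and cells without it were not analysed here. A single list of summits, each 1 bp wide and with a peak score, covers the whole study, and no row is assigned to either antibody. No replicate exists, so every interval below describes counting error in this list and no difference between conditions was tested. The labels and the list give no sequencing depth.

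Serum switches on a set of immediate early genes within minutes. Serum response factor (SRF) binds the CArG box of many of them, together with ternary complex factors of the ETS family such as ELK1. Myocardin and its relatives, the MRTFs, are coactivators that dock on the same surface of SRF as the ternary complex factors, and Myocardin reaches CArG boxes through SRF rather than by reading the DNA itself. YAP and TAZ work through TEAD factors, whose site contains GGAATG, and CCN1, CCN2 and ANKRD1 are widely used as readouts of YAP activity. CCN1 and CCN2 are also known targets of the MRTF and SRF pathway.

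The bases before the gene start are shown for EGR1, whose CArG boxes are the site type through which Myocardin is recruited, and for CCN2 and ANKRD1, which share the TEAD site and held the highest-scoring summit of the group and no summit. They are RefSeq sequences of GRCh38.p14, written 5′ to 3′ on the gene's own strand, 250 bases each and ending just before the start. They lie at chr5:138465229-138465478 (+ strand) for EGR1, chr6:131951373-131951622 (- strand) for CCN2 and chr10:90921088-90921337 (- strand) for ANKRD1. Capitals mark the CArG box in EGR1, GGAATG in CCN2 and ANKRD1, and the AP-1 letters TGANTCA in ANKRD1.
EGR1: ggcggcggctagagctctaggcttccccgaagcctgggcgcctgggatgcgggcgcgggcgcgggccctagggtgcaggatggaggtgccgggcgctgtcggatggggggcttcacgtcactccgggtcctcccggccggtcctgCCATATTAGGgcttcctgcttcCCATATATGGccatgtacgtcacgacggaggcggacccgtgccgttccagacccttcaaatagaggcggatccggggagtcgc
CCN2: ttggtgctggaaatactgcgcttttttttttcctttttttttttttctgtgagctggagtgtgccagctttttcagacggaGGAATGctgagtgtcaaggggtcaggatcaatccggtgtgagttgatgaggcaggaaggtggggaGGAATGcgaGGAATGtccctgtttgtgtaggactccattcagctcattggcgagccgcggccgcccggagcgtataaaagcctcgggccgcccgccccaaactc
ANKRD1: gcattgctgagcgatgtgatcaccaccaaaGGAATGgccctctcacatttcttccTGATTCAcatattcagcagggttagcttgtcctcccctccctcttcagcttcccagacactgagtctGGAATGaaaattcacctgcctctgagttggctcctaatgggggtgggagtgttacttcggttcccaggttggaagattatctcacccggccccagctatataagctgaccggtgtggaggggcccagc

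EGR1 held a pair of CArG boxes, starting 105 and 83 bases before its start. It was the only member of the 6 in the RefSeq promoter table with one in this stretch, and 1.16% of the 35116 promoters in the table held one. A CArG box was counted only as CC, 6 letters that are A or T, and GG, so near matches were not counted. Bases more than 250 before the start were not searched, at FOS or any other gene, so a CArG box farther upstream would be missed. GGAATG occurred 3 times in CCN2, at 169, 104 and 95 bases before the start, and at 220 and 128 bases in ANKRD1. Of all promoters in the table, 11.9% held GGAATG on either strand. The letters TGANTCA stood 195 bases before the ANKRD1 start, and 6.57% of promoters held them. The ETS core CCGGAA was found in FOSB, 205 bases before the start, and in 14.5% of promoters. The cyclic AMP response element TGACGTCA and the EGR site GCGTGGGCG, held by 1.65% and 0.720% of promoters, were in none of the 6 stretches. Both strands were searched, and no match overlapped another. CCN1 had no entry in the promoter table. These matches describe letters in the reference and not binding, and the summits described next lay beyond the start or more than 250 bases before it.

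Of the 7 genes, 6 held a summit inside the gene and ANKRD1 had none. In 5 of the 6 a summit sat near the beginning of the gene, while that of JUNB lay past the middle of its short span. The summit nearest downstream of the start lay 361 bp into FOS, 432 bp into FOSB, 447 bp into EGR1, 454 bp into CCN1, 510 bp into CCN2 and 986 bp into JUNB. Of the 16 summits, 11 lay inside a gene span, 3 in the 10 kb upstream and 2 in the 10 kb downstream. The gene spans amounted to 31.9 kb of the 171.9 kb examined. They carried 345 summits per Mb (exact Poisson 95% interval 172 to 618), against 47.8 per Mb on their chromosomes, a ratio of 7.22 (3.60 to 12.9). The flanks carried 35.7 summits per Mb (11.6 to 83.3), against 46.0 per Mb on their chromosomes, a ratio of 0.776 (0.252 to 1.81). Over whole windows the ratio was 2.01 (1.15 to 3.26), but 1.53 and 1.48 with flanks of 20 and 50 kb. It was 1.05 when only the top 25% of scores were counted on both sides, which rested on 2 summits with no interval computed. The interval for the gene spans lay above the chromosome level, while that for the flanks held it. The split into gene spans and flanks was chosen after the data were seen. These intervals count the summits of a close series as independent.

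**Figure D1:**
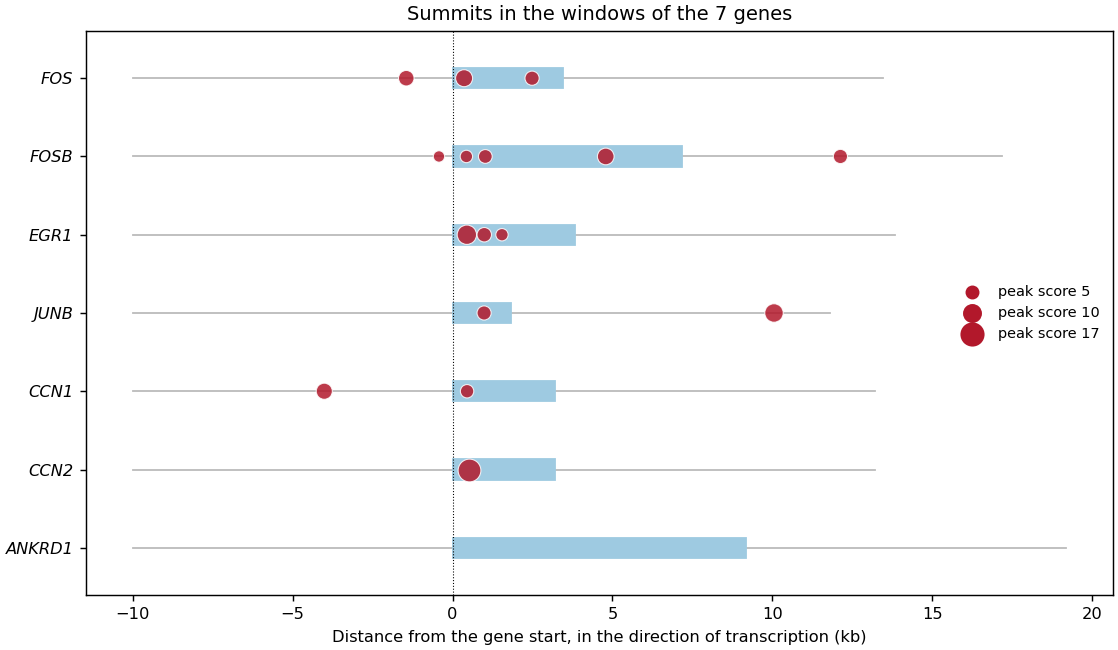
Position of the 16 summits in the windows of the 7 genes, as distance from the gene start in kb in the direction of transcription. Blue boxes are gene spans, grey lines the windows and red discs the summits, with an area that grows with the peak score; 5 genes carry a disc just right of the start, the disc in JUNB lies past the middle of the gene and ANKRD1 carries none.

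Seen by distance from the start, 8 of the summits lay within 1 kb, which is 571 per Mb (247 to 1125) and 12.4 times the chromosome level (5.36 to 24.5). A pair of these, at 991 bp in EGR1 and 986 bp in JUNB, lay just inside that distance, which was set after the positions were seen. From 1 to 2 kb there were 3, or 214 per Mb (44.2 to 626). From 2 to 5 kb the 3 summits gave 71.4 per Mb (14.7 to 209), and from 5 to 10 kb there was 0. Farther out, 7 summits at 10 to 20 kb were 1.09 times the chromosome level (0.437 to 2.24), and 29 at 20 to 50 kb gave 69.0 per Mb (46.2 to 99.2), against 46.0 per Mb on the chromosomes. The density was highest within 1 kb of the start. The interval of the second kilobase reached just below the chromosome level, and that of the 20 to 50 kb range began just above it.

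**Figure D2:**
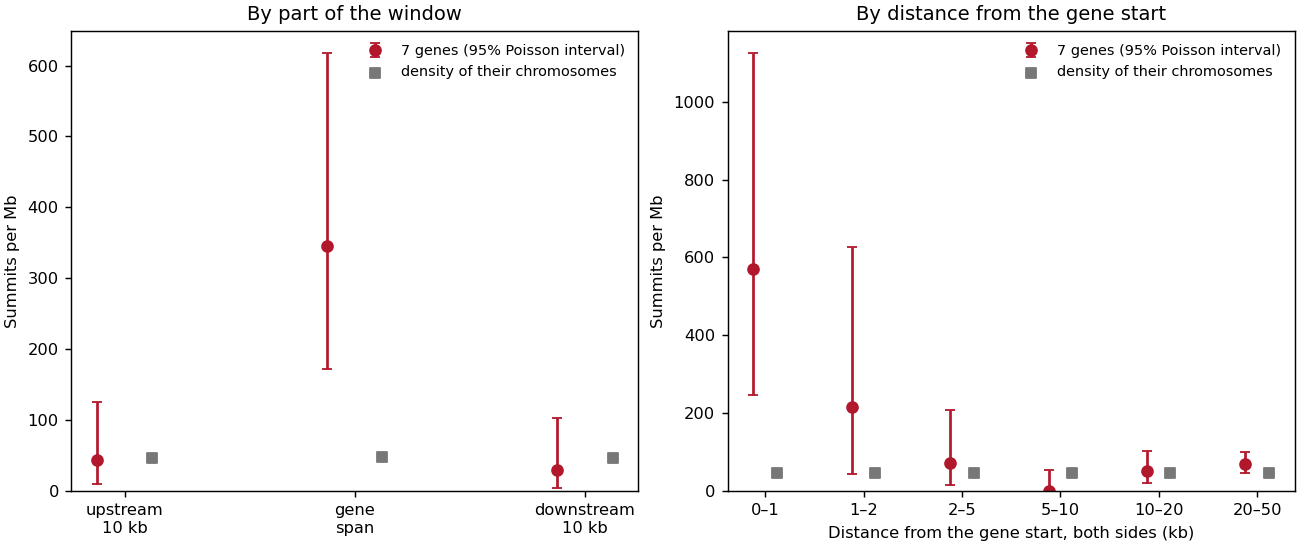
Summits per Mb in the upstream flank, gene span and downstream flank (left) and by distance from the gene start in kb (right), over the 7 genes. Red points are the genes with exact Poisson 95% intervals and grey squares the density of their chromosomes. The gene spans (345 per Mb) and the first kilobase (571 per Mb) stand above the squares with their whole intervals. The interval at 20 to 50 kb begins just above its square. The points at 1 to 2, 2 to 5 and 10 to 20 kb are also above, with intervals that hold the square.

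Among the transcription factor genes, FOS, FOSB and EGR1 held several summits each and JUNB held 2. FOS encodes the c-Fos subunit of the AP-1 dimer and is the classic serum response gene, with its SRF site upstream of the start. Its 3 summits lay on chromosome 14 at 75744034, 1447 bp before the start, at 75745842, 361 bp into the gene, and at 75747967, 2486 bp into the gene. Their scores were 8.23, 9.84 and 6.83, so the summit nearest the start was the highest. The last of them lay 970 bp before the end of the gene (chr14:75745481-75748937).

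FOSB encodes another Fos-family partner of Jun proteins. With 5 summits its window held more than that of any other member, and it was also the longest of the 4 transcription factor windows. They lay on chromosome 19 at 45970828, 45971685, 45972277, 45976042 and 45983379, which is 425 bp before the start, 432, 1024 and 4789 bp into the gene, and 4942 bp beyond its end (chr19:45971253-45978437). The scores in that order were 4.41, 5.25, 6.46, 9.47 and 6.87. The highest was the one deep in the gene, and the pair that flanked the start had the lowest.

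EGR1 encodes a zinc-finger factor induced within minutes by serum and growth factors. All 3 of its summits lay inside the gene (chr5:137801181-137805004), on chromosome 5 at 137801628, 137802172 and 137802726, which is 447, 991 and 1545 bp from the start. The scores were 12.8, 7.10 and 5.18, falling with distance from the start. The nearest summit upstream of the start was 19.7 kb away. Of 47310 stretches of the EGR1 gene's own length laid end to end over chromosome 5, 33 held 3 summits or more, or 0.0698%. These stretches covered the whole chromosome and were not placed at genes or gene starts.

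JUNB encodes a Jun-family partner of the Fos proteins. Its gene is the shortest of the group (chr19:12902310-12904125) and held 1 summit, at 12903296 and 986 bp from the start, with a score of 6.78. The other summit of its window, at 12912360, lay 8235 bp beyond the gene end and scored higher, at 11.6. In the gene order of GRCh38.p14 the next protein-coding gene on that side is PRDX2, whose GRCh37 position was not used here.

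The YAP-linked genes held fewer summits, 3 in all, and differed among themselves. CCN1 encodes a secreted matricellular protein that binds integrins. It had 1 summit inside the gene (chr1:86046444-86049648), at 86046898 and 454 bp from the start, with a score of 6.11. A higher one, scoring 8.85, lay 4011 bp before the start at 86042433.

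CCN2 encodes connective tissue growth factor, a related matricellular protein and a target of TGF-beta, YAP and MRTF signalling. Its only summit, on chromosome 6 at 132272008, lay 510 bp into the gene (chr6:132269316-132272518, - strand) and had a score of 17.7, the highest of all 16. The next summit upstream was 389 kb from the start and the next on the other side was 31.7 kb from this summit. Chromosome 6 held 22.0 summits per Mb, and the share of its summits with so distant a nearest neighbour was not computed. Within 1 Mb of the gene there were 22 summits, and the one in CCN2 had the highest score of them. Of the 3771 intervals between adjacent summits on chromosome 6, 22 were at least as long as the one that spans the CCN2 start (0.583%), and these covered 7.78% of the chromosome.

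ANKRD1 encodes cardiac ankyrin repeat protein, a nuclear and sarcomeric protein induced in stressed muscle and a YAP readout in epithelial cells. Its window (chr10:92661857-92691033) held 0 summits. The nearest lay 49.5 kb upstream of the start, at 92730543 with a score of 10.2, and the nearest on the downstream side was 63.8 kb away. The gene thus stood in an interval of 113 kb between adjacent summits, and 2.48% of the 5876 intervals on chromosome 10 were at least that long. These intervals covered 20.8% of the chromosome. The list holds called peaks only, so signal below the caller's threshold at ANKRD1 was not measured.

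Set beside each other, the gene spans of FOS, FOSB, EGR1 and JUNB held 9 summits in 16.3 kb, or 553 per Mb (253 to 1049), and those of CCN1, CCN2 and ANKRD1 held 2 in 15.6 kb, or 128 per Mb (15.5 to 464). Relative to their chromosomes these are ratios of 9.47 (4.33 to 18.0) and 3.49 (0.422 to 12.6). The intervals overlap, and the difference between both groups of genes was not tested.

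The windows were then compared with all windows of the same length laid end to end over the same chromosome, in place of windows drawn at random. A summit was present in 44.5% of such windows for FOS on chromosome 14, 80.8% for FOSB and 76.7% for JUNB on chromosome 19, 47.6% for EGR1 on chromosome 5, 45.1% for CCN1 on chromosome 1, 34.3% for CCN2 on chromosome 6 and 61.7% for ANKRD1 on chromosome 10. A summit was found in 6 of the 7 members' windows, against 3.91 from these frequencies. At this width the presence of a summit is thus common along every one of these chromosomes, most of all on chromosome 19.

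The counts placed the members differently. EGR1, with 3 summits, was matched or exceeded by 7.70% of 7593 windows (exact Clopper-Pearson 95% interval 7.11 to 8.33). FOS, also with 3, was matched or exceeded by 9.29% of 4576 windows (8.46 to 10.2), and FOSB, with 5, likewise by 9.29% of 2175 windows (8.10 to 10.6). For CCN1 the share was 20.1% (19.3 to 20.8) and for CCN2 34.3% (33.2 to 35.4). JUNB, with 2 summits, sat in the middle of its chromosome, with 49.7% (47.8 to 51.6), where the mean was 1.71 per window. Beside the windows within 5 Mb of the gene, EGR1 was matched or exceeded by 20.5% and FOSB by 18.5%, while CCN1 was by 3.71%.

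**Figure D3:**
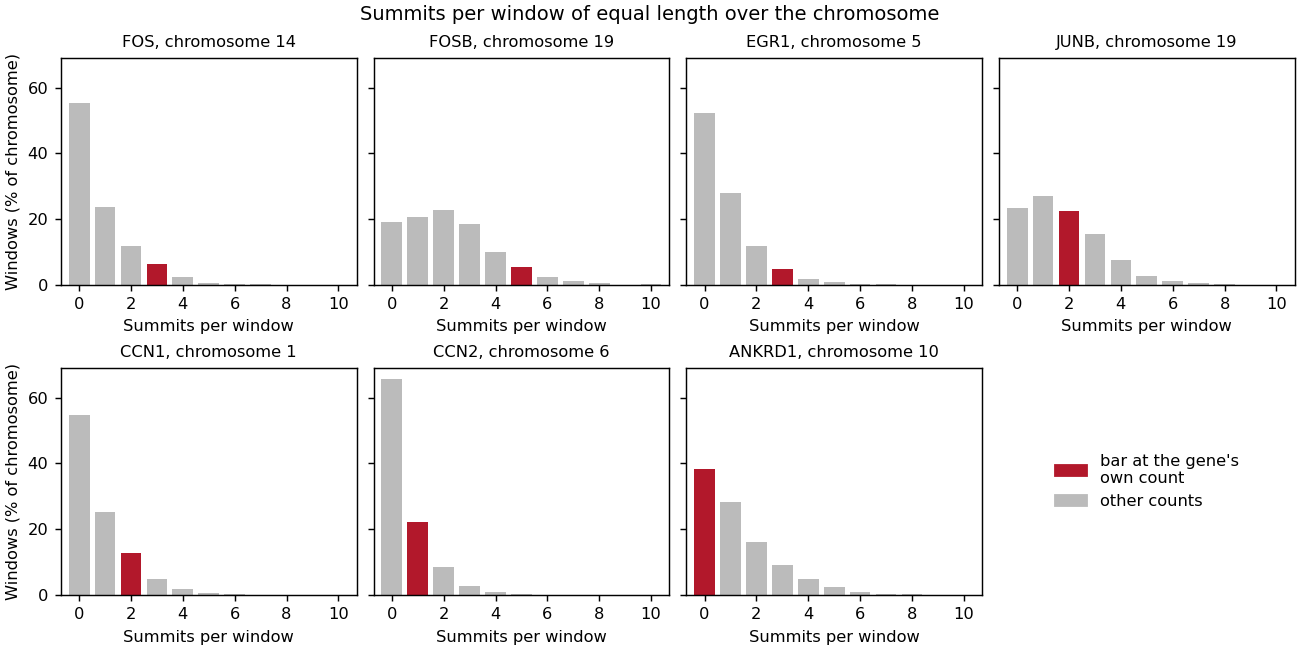
Share of equal-length windows over each member's chromosome (%) by the number of summits they hold; the red bar marks the member's own count and grey bars the other counts. EGR1, FOS and FOSB fall in the right-hand tail (7.70%, 9.29% and 9.29% at or above their count), JUNB near the middle, and ANKRD1 at 0 summits.

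Taken without flanks, the gene spans stood farther out on their chromosomes. For FOS, with 2 summits in the gene, 0.911% of 31052 stretches of the gene's length held as many, and for FOSB, with 3, 1.79% of 8229 did. A single summit in the gene was matched or exceeded by 6.53% of stretches for CCN2, 9.67% for CCN1 and 13.4% for JUNB. EGR1, at the 0.0698% given above, was therefore the member whose gene span was most rarely matched. Its 3 summits formed a close series, with gaps of 544 and 554 bp. The stretches lay anywhere on the chromosome and not at gene starts, and the gene spans were singled out after the data were seen. Gene length and the density of the chromosome both enter this comparison, and JUNB is a short gene on a dense chromosome. For a single point, the start itself, 2.21% of positions taken every 1 kb over chromosome 6 were as near to a summit as the CCN2 start, and 2.44% over chromosome 14 as near as the FOS start. The share was 2.94% for EGR1, 2.93% for CCN1, 6.54% for FOSB, 14.4% for JUNB and 89.5% for ANKRD1.

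Near the start, most genes had a summit where most of the chromosome had none. Of the 7 genes, 6 had a summit within 1 kb of the start, where windows of 2001 bp end to end held one in 6.38% of cases on chromosome 14 (FOS), 14.6% on chromosome 19 (FOSB and JUNB), 6.34% on chromosome 5 (EGR1), 6.21% on chromosome 1 (CCN1), 4.17% on chromosome 6 (CCN2) and 8.19% on chromosome 10 (ANKRD1). The 6 genes stand against 0.605 from these frequencies. The distance of 1 kb was set after the positions were seen, and the JUNB summit, at 986 bp, lay just inside it. Within 0.5 kb of the start, 4 of the 7 genes had a summit, but the share of windows of that smaller width with a summit was not computed. The comparison is with the whole chromosome and not with other gene starts, because no GRCh37 annotation was used here. Whether these genes differ from other expressed genes in this respect was not tested.

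The scores of these summits were moderate. They ran from 4.41 to 17.7 with a median of 6.99, against 2.15 to 281 with a median of 8.50 in the whole list. The score is the authors' own value per peak, with no stated unit, and serves only to rank peaks within the list. Of the 16 summits 6 were above the list median, and 2 reached the top 25% (12.5%, with a Clopper-Pearson interval of 1.55 to 38.3; of the whole list, 26.3% reach it because of ties). Those were CCN2, above 90.7% of the list, and the first summit of EGR1, above 77.1%. The 11 summits inside genes had a median of 6.83 and the 5 in flanks 8.23, with ranges that overlap. By the summit closest inside the start, the order was CCN2 (17.7), EGR1 (12.8), FOS (9.84), JUNB (6.78), CCN1 (6.11) and FOSB (5.25), and with 1 list no error can be put on the steps between neighbours in it. None of the 16 had a score shared by at least 150 peaks, as 29.4% of the list had.

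**Figure D4:**
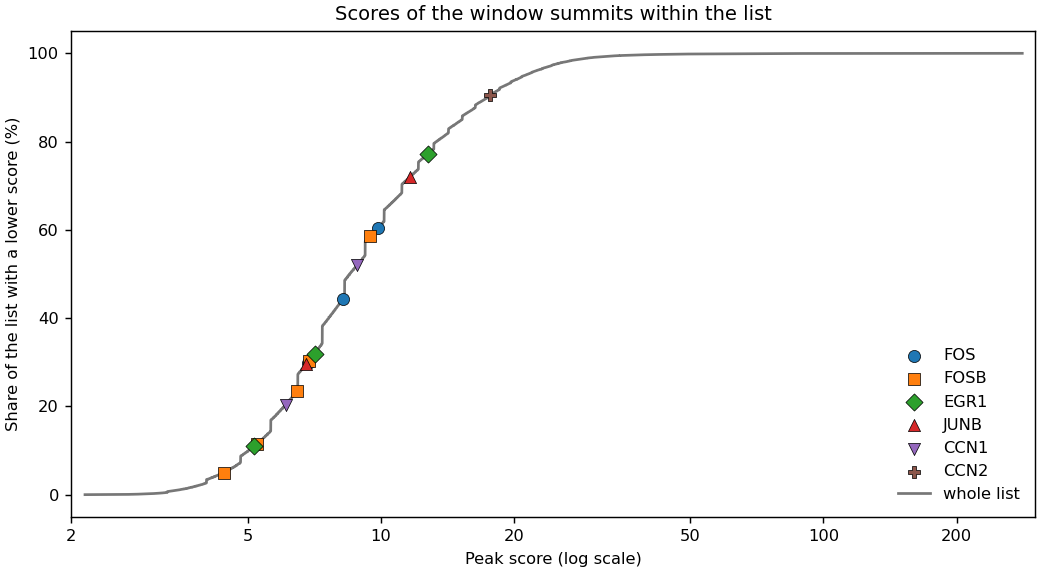
Peak score (log scale) of each window summit, by gene, against the share of the list with a lower score (%), with the whole list as a grey line. The summits lie between 4.41 and 17.7, and the CCN2 summit is the farthest right.

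The surroundings of the genes differed in density. FOSB and EGR1 lay in crowded regions, with 106 and 59.4 summits per Mb within 1 Mb of the gene, against 78.6 and 33.3 on their chromosomes, and FOS likewise with 63.9, against 33.6. JUNB had 59.4 within 1 Mb, against 78.6 on chromosome 19. The surroundings of CCN1, CCN2 and ANKRD1 were sparse, with 18.5, 11.0 and 22.9 summits per Mb, against 32.7, 22.0 and 43.4 on their chromosomes. Within 100 kb, the density was 130 per Mb around FOSB, 119 around JUNB, 78.5 around EGR1 and 59.0 around FOS, and 24.6 around CCN1, 14.3 around ANKRD1 and 9.84 around CCN2. The windows themselves held 86.2 per Mb for CCN1 and 43.1 for CCN2, but the CCN2 value is a single summit, and any window there with a summit would exceed its surroundings. Within 5 Mb of CCN2, 23.4% of equal-length windows held at least 1 summit. The highest summit of the FOS window ranked 49 by score among the 128 summits within 1 Mb, that of FOSB 70 of 213, that of EGR1 31 of 119, that of JUNB 22 of 119 and that of CCN1 22 of 37.

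**Figure D5:**
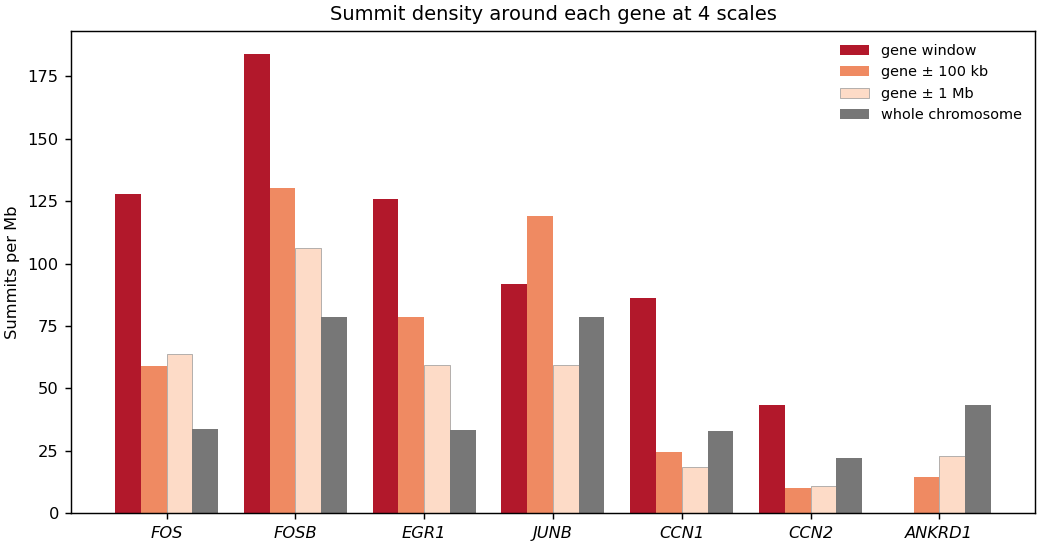
Summits per Mb in each gene window, within 100 kb of the gene, within 1 Mb of it and on its whole chromosome, from left to right for each gene. Among the bars for 1 Mb, those of CCN1, CCN2 and ANKRD1 (18.5, 11.0 and 22.9) are the lowest. The CCN2 window bar (43.1) is 1 summit, and ANKRD1 has no bar for its window.

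Some of the summits came in close series. Of the 16 window summits 6 had another summit less than 1.5 kb away (37.5%), against 18.0% of the nuclear list. All 6 were at FOSB and EGR1, with gaps of 857 and 592 bp at FOSB and of 544 and 554 bp at EGR1. The gaps at FOS were 1808 and 2125 bp. This share rests on 2 genes and was not tested.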

How the data were processed

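Chromatin from 1 MYOCD-overexpressing A549 line was sequenced after precipitation with anti-Myocardin or IgG, 1 library each, from 15 PCR cycles and fragments of about 250 bp with adapters, per the labels' protocols. The authors deposited 1 list with a position and a peak score per summit, per the file headers. Neither the caller's settings, nor the use of IgG, nor duplicate handling is given in the sources used here. CASAVA 1.4, mm9 and GRCh38.p12 are named in the submitters' processing notes, but 1093 summits lie past a chromosome end in GRCh38 and 0 do in GRCh37, whose chromosome lengths came with GenomeInfoDb. No column of per-sample values was left out.

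Summits were taken at the End column, and the gene spans came with the definition of the group. Span lengths differed from RefSeq (GRCh38.p14) by at most 185 bp, at ANKRD1. Strands came from the RefSeq promoter table, and that of CCN1 from general knowledge. Counts per window were compared with equal-length windows end to end over the whole chromosome, and densities with the chromosome mean. Intervals are exact Poisson or Clopper-Pearson 95% intervals and cover counting error only. The top 25% were scores of at least 12.2. The window counting was tested on simulated data. Python 3.11.15, numpy 2.4.6, pandas 2.3.3 and scipy 1.17.1 were used. The members and lists were chosen with earlier results of these data known, and all members and all their summits are named. Other genes of the pathways were not placed, since no GRCh37 annotation was used here.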

Additional observations from a re-analysis of the deposited data

How the results depend on the processing

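Of 99 alternatives over 21 results, 72 kept the value within its interval, or a count or distance within 1.5 times. The number of genes with a summit was 6 with flanks of 0, 5 or 20 kb and 7 with 50 kb, but 2 among the top 25% of scores, as was the number within 1 kb of the start, which was 4 within 0.5 kb. The number of summits was 50 with flanks of 50 kb and 2 in the top 25% of scores. The density ratio of the windows was 7.22 with no flank and 1.05 in the top 25% of scores. In that top 25%, the window ratio of 1.05 and the gene-span ratio of 5.48 rested on the same 2 summits. No interval was computed for either, and the flanks held 0. With flanks of 5 or 50 kb the flank ratio was 1.24 or 1.21, above 1 where it had been 0.776. Leaving out each gene in turn gave 1.81 to 2.39 for the windows, 5.73 to 9.77 for the gene spans and 0.616 to 0.897 for the flanks. Among the top 25% of scores the nearest summit was at -102568 bp for FOS, -70407 bp for JUNB, -61464 bp for CCN1 and 63762 bp for ANKRD1 (upstream negative), on the other side of the start than over all scores. In the top 25% of scores fewer summits are left; the cause of the change in the ratio was not tested, and 12.5% of the window summits, against 26.3% of the list, reach those scores. The comparisons of gene spans, flanks and the first kilobase with the chromosomes were chosen after seeing the data. No paired analysis was possible because each antibody has a single library, which leaves no replicate to omit, and the list is tied to neither. No reads were used here, so what depth limits cannot be given.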
